A study of Mus musculus with 16 samples.

Results

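Immediate early genes are switched on within minutes of a stimulus, from promoters that need no new protein, and their mRNAs decay quickly. They are induced through MAP kinase, calcium and cAMP signalling, and in skin they respond to wounding, irritation and growth factors as well as to the handling of the tissue itself. Fos and Jun family proteins pair to form the transcription factor AP-1, which takes part in keratinocyte differentiation, while heat shock genes are induced by heat shock factor when proteins misfold. The 10 genes described here are Fos, Fosb, Jun, Junb, Egr1, Nr4a1, Ier2, Atf3, Dusp1 and Hspa1a. They were taken by name from 23930 measured targets, each was found as 1 target, and all 10 passed the filter on low counts, as did 13633 targets in all.

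The levels come from whole skin of 16 mice aged 12 weeks, 4 in each of 4 groups. Every mouse, Control included, carried loxP sites on both copies of Zc3h12a, the gene of MCPIP1, an endoribonuclease that cleaves cytokine and other inflammatory mRNAs. Control mice, Zc3h12a(loxP/loxP), carried no Cre in their labels. EKO mice also carried Krt14Cre(Tg/Wt), driven by a keratin promoter of basal keratinocytes and hair follicles. MKO mice carried LysMCre(Tg/Wt), active in macrophages, monocytes and neutrophils, and EMdKO mice carried both. Mice with Cre and without floxed alleles were not among the groups, so an effect of a Cre transgene itself cannot be told apart from the deletion.

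Each library held 6962474 to 12086327 counts on targets of an amplicon panel, and levels are given as CPM, counts relative to the library total after TMM scaling. Single counts behind the 10 genes ran from 8, for Fosb in EKO mouse 3, to 23065, for Egr1 in EMdKO mouse 3. Zc3h12a itself ranged from 19.4 to 30.3 CPM over the Control mice, 17.1 to 35.0 CPM over the MKO mice, 7.07 to 11.7 CPM over the EKO mice and 4.41 to 5.71 CPM over the EMdKO mice, so both groups with Krt14Cre lay below Control in every mouse. The position of its amplicon relative to the deleted part is not given in the sources used here. Its log2 difference from Control was -1.52 ± 0.23 (SE) in EKO with an adjusted p of 0.082, 0.10 ± 0.22 in MKO with an adjusted p of 0.914, and -2.21 ± 0.24 in EMdKO with an adjusted p of 0.000448 (edgeR quasi-likelihood test, 4 mice a group, Benjamini-Hochberg adjustment over all tested targets). Basal keratinocyte markers summed to 6287 to 13500 CPM and fibroblast markers to 18490 to 46260 CPM over all mice, and both were found in every library. Skeletal muscle markers varied more, from 23570 CPM in EMdKO mouse 3 to 114400 CPM in MKO mouse 1. The hair shaft and inner root sheath list summed to 683 CPM in MKO mouse 1 and up to 39650 CPM in Control mouse 1. As summed and scored, that list also took in Krt1, a keratin of differentiated keratinocytes. Krt1 ran from 382 to 5036 CPM over all mice, so the hair sums and score do not measure hair genes alone. No marker list had a gene at 0 in all libraries. C1qa of the macrophage list and Ly6g of the neutrophil list came close, at no more than 0.12 and 0.13 CPM in any mouse. In whole tissue, fewer cells of a type and less RNA per cell cannot be told apart.

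The promoters of 3 of the genes are shown because they carry the letters through which cAMP, calcium and heat signals are known to be read. The sequences are RefSeq's for GRCm38.p6, and each ends at the base before the annotated start of transcription. Fos is shown for chr12:85473730-85473889 on the plus strand, with TGACG, the core of the cAMP response element (CRE), and the TATA box TATAAA in capitals. Dusp1 is shown for chr17:26508473-26508672 on the minus strand, with TGACG and the full cAMP response element TGACGTCA in capitals. Hspa1a is shown for chr17:34972157-34972406 on the minus strand, with the heat shock element core GAANNTTC in capitals.
Fos: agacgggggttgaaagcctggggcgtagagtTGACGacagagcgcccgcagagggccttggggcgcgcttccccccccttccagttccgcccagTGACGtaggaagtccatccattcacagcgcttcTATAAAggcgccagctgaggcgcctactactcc
Dusp1: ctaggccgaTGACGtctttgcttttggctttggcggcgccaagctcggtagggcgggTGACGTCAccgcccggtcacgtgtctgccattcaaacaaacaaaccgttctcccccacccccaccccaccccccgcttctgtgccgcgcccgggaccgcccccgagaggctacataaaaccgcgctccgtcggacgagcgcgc
Hspa1a: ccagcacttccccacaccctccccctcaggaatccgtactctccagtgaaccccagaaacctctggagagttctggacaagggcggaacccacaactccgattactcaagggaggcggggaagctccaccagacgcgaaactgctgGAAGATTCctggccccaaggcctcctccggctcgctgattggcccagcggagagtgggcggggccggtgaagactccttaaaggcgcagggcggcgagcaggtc

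Windows of the 250 bases before the start were searched for 8 of the 10 genes, and Egr1 and Ier2 had none in the source used. TGACG, searched on both strands and counted also where it lies inside TGACGTCA, was present in 6 of these 8 windows, those of Fos, Fosb, Junb, Dusp1, Atf3 and Nr4a1, against 17.8% of 32851 windows of the same length. The full TGACGTCA was found in Dusp1 alone, against 1.55% of windows. GAANNTTC was present in Jun and Hspa1a, against 6.69% of windows, and TATAAA in Fos, against 12.4%. No member window held TGANTCA, the AP-1 site, which 6.75% of windows held, the CArG box of serum response factor, held by 1.47%, or TTCNNGAA, held by 7.17%. These matches describe the letters of one short window and show no binding. Bases farther upstream were not searched, so a motif missing from a window may lie outside it.

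The AU-rich nonamer TTATTTATT, a signal of rapid mRNA decay, is shown for the pair of genes whose transcripts held it. It lay once in the Fos transcript, at bases 1948 to 1956, and at 2 places in the Dusp1 transcript, the first at bases 1403 to 1411, in each case after the longest open reading frame, and 7.99% of 21877 protein-coding genes had one. The nonamer is in capitals.
Fos: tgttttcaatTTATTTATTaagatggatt
Dusp1: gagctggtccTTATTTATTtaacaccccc

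The Fos family genes had a wide spread within every genotype, and no group stood apart. Fos, on chromosome 12 and the best known partner of Jun in AP-1, measured 122, 227, 72.5 and 120.2 CPM across mice 1 to 4 of the Control group, 178, 61.9, 17.4 and 23.9 CPM across the EKO mice, 245, 159, 39.8 and 64.5 CPM across the MKO mice and 61.3, 208, 523 and 57.4 CPM across the EMdKO mice. EMdKO mouse 3 was the highest of all 16 mice and EKO mouse 3 the lowest, a 30.1-fold range, and every group overlapped every other. Its group means were 135 ± 65.4 CPM (SD, n = 4) for Control, 70.2 ± 74.3 CPM for EKO, 127 ± 93.9 CPM for MKO and 212 ± 219 CPM for EMdKO, and each knockout group had an SD larger than the difference of its mean from that of Control. Fosb, a second Fos protein on chromosome 7, measured 12.3, 25.0, 8.78 and 11.0 CPM across mice 1 to 4 of the Control group, 25.9, 3.93, 0.97 and 16.6 CPM across the EKO mice, 21.5, 11.5, 6.43 and 3.76 CPM across the MKO mice and 8.20, 13.9, 50.6 and 35.5 CPM across the EMdKO mice. The same pair of mice marked its top and its bottom, 52.2-fold apart, and its groups overlapped as well.

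The Jun family genes were the steadier part of AP-1. Jun, a gene of a single exon on chromosome 4, measured 234, 159, 240.4 and 242 CPM across mice 1 to 4 of the Control group, 282, 246, 179 and 211 CPM across the EKO mice, 299.7, 278, 244 and 256 CPM across the MKO mice and 286, 247, 314 and 188 CPM across the EMdKO mice. Its whole range was 1.97-fold, and the lowest MKO mouse lay just above the highest Control mouse. Junb, a single-exon gene on chromosome 8 whose protein often restrains Jun, measured 365, 368, 203 and 279 CPM across mice 1 to 4 of the Control group, 311, 318, 197 and 195 CPM across the EKO mice, 229, 303, 184 and 212 CPM across the MKO mice and 271, 236, 370.4 and 215 CPM across the EMdKO mice. Its range was 2.02-fold, with all groups overlapping.

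Of the other immediate early regulators, Egr1 and Nr4a1 each had single mice far from the rest. Egr1, a zinc finger transcription factor on chromosome 18, measured 711, 759, 334 and 458 CPM across mice 1 to 4 of the Control group, 726, 358, 213 and 315 CPM across the EKO mice, 504, 534, 311 and 387 CPM across the MKO mice and 642, 468, 2195 and 279 CPM across the EMdKO mice. The value of EMdKO mouse 3 was the highest of all, 10.3-fold above that of EKO mouse 3, while the other EMdKO mice lay within the Control range or below it. Nr4a1, an orphan nuclear receptor on chromosome 15, measured 35.8, 143, 40.2 and 72.8 CPM across mice 1 to 4 of the Control group, 64.0, 18.1, 21.1 and 47.6 CPM across the EKO mice, 133, 47.1, 46.6 and 38.6 CPM across the MKO mice and 60.0, 61.7, 78.6 and 57.8 CPM across the EMdKO mice. Here Control mouse 2 and MKO mouse 1 stood out at the top, and EMdKO mouse 3 did not. Ier2, a short single-exon gene of a nuclear protein on chromosome 8, ranged from 12.7 to 35.1 CPM over the Control mice, 15.1 to 38.0 CPM over the EKO mice, 15.0 to 37.4 CPM over the MKO mice and 17.6 to 23.7 CPM over the EMdKO mice, with all groups overlapping.

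Atf3, Dusp1 and Hspa1a are described last, and none of them passed the test in any comparison. Atf3, a stress-induced bZIP factor on chromosome 1, measured 19.6, 41.0, 14.9 and 14.2 CPM across mice 1 to 4 of the Control group, 27.7, 15.4, 16.6 and 20.9 CPM across the EKO mice, 66.0, 28.7, 20.3 and 9.79 CPM across the MKO mice and 42.8, 45.2, 50.5 and 41.5 CPM across the EMdKO mice. All 4 EMdKO mice lay above all Control and all EKO mice, although Control mouse 2 came within 0.5 CPM of the lowest of them, and MKO mouse 1 exceeded them all. Dusp1, the phosphatase that switches off p38, JNK and ERK, on chromosome 17, measured 57.8, 85.2, 59.7 and 97.0 CPM across mice 1 to 4 of the Control group, 60.3, 75.6, 46.2 and 51.5 CPM across the EKO mice, 109, 110.0, 57.8 and 54.8 CPM across the MKO mice and 89.4, 99.3, 234 and 119 CPM across the EMdKO mice. Every EMdKO mouse exceeded every EKO mouse, and the EMdKO and Control groups overlapped. Hspa1a, the inducible Hsp70 chaperone and the gene behind the heat shock element shown above, measured 12.0, 14.0, 15.9 and 22.6 CPM across mice 1 to 4 of the Control group, 11.9, 21.5, 12.5 and 13.0 CPM across the EKO mice, 12.2, 17.9, 18.5 and 12.3 CPM across the MKO mice and 17.5, 28.3, 20.3 and 31.7 CPM across the EMdKO mice. The upper EMdKO mice lay above all other mice, and the lower ones within the other groups.

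**Figure D1:**
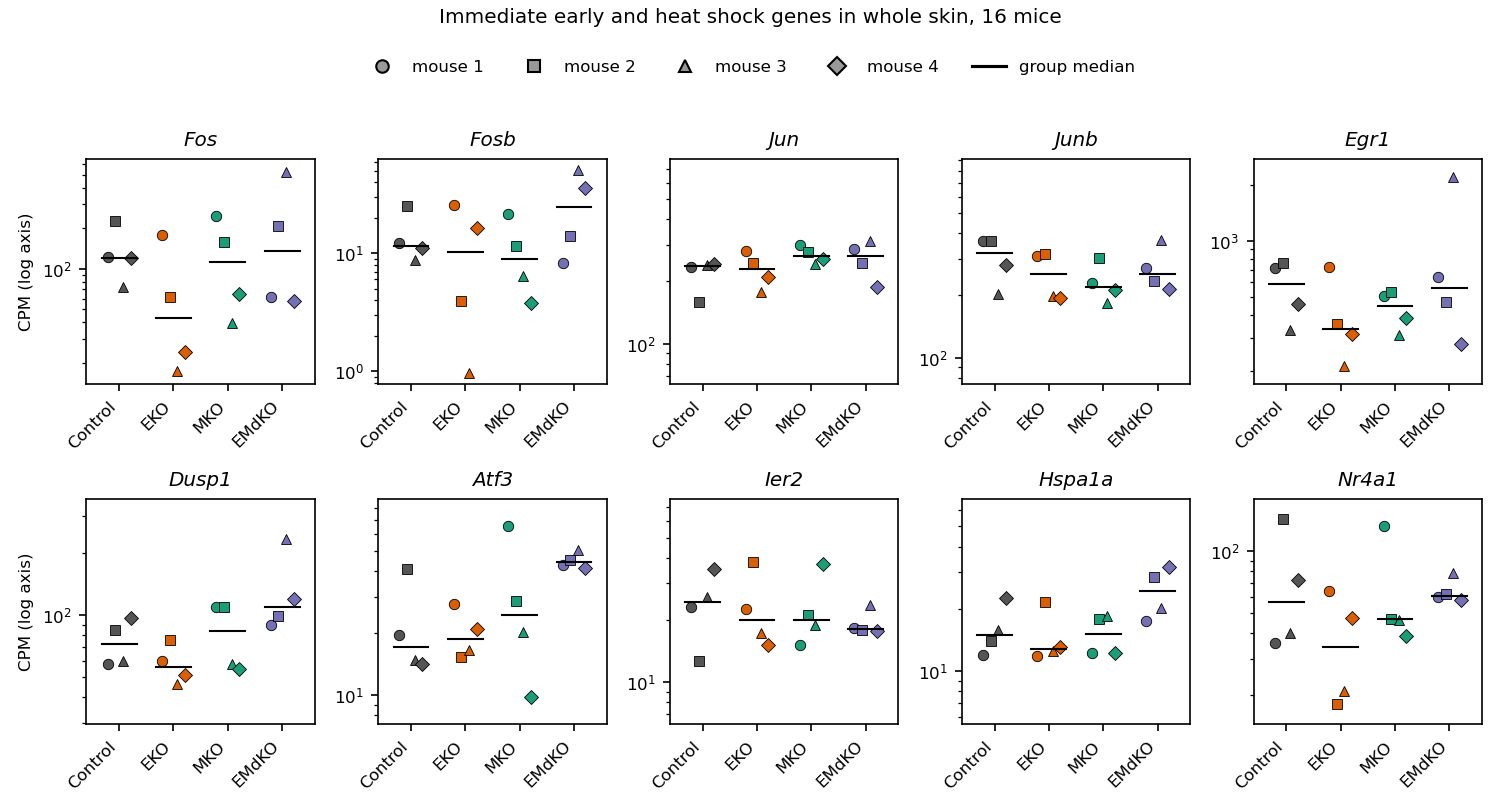
Level of each of the 10 genes in CPM (log axis) in every mouse, by group, with the group median as a bar and the mouse number as the marker shape; each panel has its own axis range. EMdKO mouse 3 lies at 523 CPM of Fos and 2195 CPM of Egr1, and the 4 EMdKO mice lie between 41.5 and 50.5 CPM of Atf3.

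Hspa1a has a near-identical copy, Hspa1b, a short way off on chromosome 17, and the way reads were divided between them is not known. The coding sequences were identical at 1918 of 1929 aligned positions (99.4%), and the 250 bases before the start at 98.8%, with the same GAAGATTC in both. Hspa1b, the second inducible Hsp70 gene, ranged from 24.5 to 50.2 CPM over the Control mice, 31.5 to 50.7 CPM over the EKO mice, 17.9 to 54.1 CPM over the MKO mice and 29.6 to 58.9 CPM over the EMdKO mice. Its log2 difference between EMdKO and Control was 0.07 ± 0.30 with an adjusted p of 0.979, against 0.60 ± 0.26 for Hspa1a, so the value of either copy alone is uncertain.

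With keratinocyte deletion alone, none of the 10 genes passed an adjusted p of 0.05 against Control, and 0% of all tested targets did. None had an unadjusted p under 0.05 either, against 6.9% of all targets. The fitted log2 difference was negative for 9 of the 10 genes, with a median of -0.26 over them and of -0.03 over all tested targets. The most negative were those of Nr4a1, -0.95 ± 0.49 with an adjusted p of 0.736, and Fos, -0.94 ± 0.78 with an adjusted p of 0.826. Without EKO mouse 1, the highest of its group for both, the values were -1.34 for Nr4a1 and -1.97 for Fos. Without Control mouse 2 they were -0.40 and -0.57. Jun, at 0.07 ± 0.19, was the one gene with a positive value, and no gene had groups that did not overlap, against 1.03% of targets that lay wholly higher and 1.23% wholly lower.

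With myeloid deletion alone, again none of the 10 genes passed, against 0.0293% of all targets, and none had an unadjusted p under 0.05, against 9.58% of targets. Jun was fitted at 0.30 ± 0.19 with an adjusted p of 0.644, and was the one gene whose MKO and Control mice did not overlap, a separation in the upward direction that 1.37% of all targets also had. Junb was fitted at -0.39 ± 0.24 with an adjusted p of 0.640. That value came to -0.11 with a term for the hair shaft score. The list behind the score, Krt1 included, summed to 683 to 1296 CPM in the MKO mice. Krt1 alone ran from 680 to 992 CPM there. Atf3 was fitted at 0.48 ± 0.44 with an adjusted p of 0.763, a value that came to -0.19 without MKO mouse 1, the mouse with the highest skeletal muscle markers, and to 0.05 with the muscle score as a covariate. The remaining 7 genes lay between -0.41 for Fosb and 0.15 for Dusp1, and the median over the 10 genes was -0.09.

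With both deletions, none of the 10 genes passed against Control, where 0.0293% of all targets did. At an unadjusted p under 0.05 there were 3 of 10, Dusp1, Hspa1a and Atf3, against 8.16% of all targets. Dusp1 was fitted at 0.86 ± 0.32, an unadjusted p of 0.0153 and an adjusted p of 0.468. Hspa1a was fitted at 0.60 ± 0.26, with 0.0350 and 0.571 for the same p-values, and Atf3 at 1.01 ± 0.44, with 0.0369 and 0.581. Atf3 alone had groups that did not overlap, all 4 EMdKO mice being higher, as was the case for 2.23% of all targets, with 1.45% wholly lower. The count of 3 fell to 1 without Control mouse 1, Control mouse 3, EMdKO mouse 2 or EMdKO mouse 3. The share of all targets under 0.05 was not counted in those fits. The median log2 difference over the 10 genes was 0.62, against -0.02 over all targets, and 7 of the 10 were positive.

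That median leaned on EMdKO mouse 3. Without that mouse the value for Fos went from 0.65 to -0.31 and that for Egr1 from 0.66 to -0.29, so the sign turned for both. For Fosb it went from 0.93 to 0.43, and for Dusp1 from 0.86 to 0.46. For Atf3 it was 0.95 and for Hspa1a 0.68 without it, close to the values with all mice. EMdKO mouse 3 had the lowest skeletal muscle markers of all 16 mice. Its hair shaft list, Krt1 included, summed to 10690 CPM, where those of the other EMdKO mice summed to 1359 to 1717 CPM. Krt1 alone ran from 1349 to 2458 CPM over the EMdKO mice, so it made up most of the lower sums. Fitted with a term for the hair shaft score, Krt1 included, the values were 0.85 for Fos, 0.87 for Egr1, 0.87 for Dusp1, 1.08 for Atf3 and 0.35 for Hspa1a. With the muscle score they were 0.77, 0.60, 0.85, 1.03 and 0.60. How the skin of that mouse was taken is not given in the sources used here.

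When the double deletion was set against keratinocyte deletion alone, a contrast that asks what the myeloid deletion adds, again none of the 10 genes passed, against 0.0147% of all targets. At an unadjusted p under 0.05 there were 4 of 10, against 6.59% of targets: Dusp1, Hspa1a, Atf3 and Egr1. Dusp1 was fitted at 1.21 ± 0.32, with an unadjusted p of 0.0015, which was rank 34 of 13633, and an adjusted p of 0.514. Under DESeq2 its adjusted p of 0.0913 was the smallest that any of the 10 genes reached in any contrast and setting. Hspa1a was fitted at 0.73 ± 0.26 with an adjusted p of 0.672, Atf3 at 1.16 ± 0.44 with 0.703, Egr1 at 1.15 ± 0.52 with 0.745, and Fos at 1.59 ± 0.79 with 0.757. Dusp1 and Atf3 were higher in every EMdKO mouse than in every EKO mouse, as were 2.86% of all targets, with 2.71% wholly lower. Without EMdKO mouse 3 the values were 0.81 for Dusp1, 1.10 for Atf3, 0.81 for Hspa1a, 0.63 for Fos and 0.20 for Egr1. The count of 4 came to 7 without EKO mouse 1 and to 2 without EKO mouse 2. The share of all targets under 0.05 was not counted in those fits, so these counts have no background beside them.

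**Figure D2:**
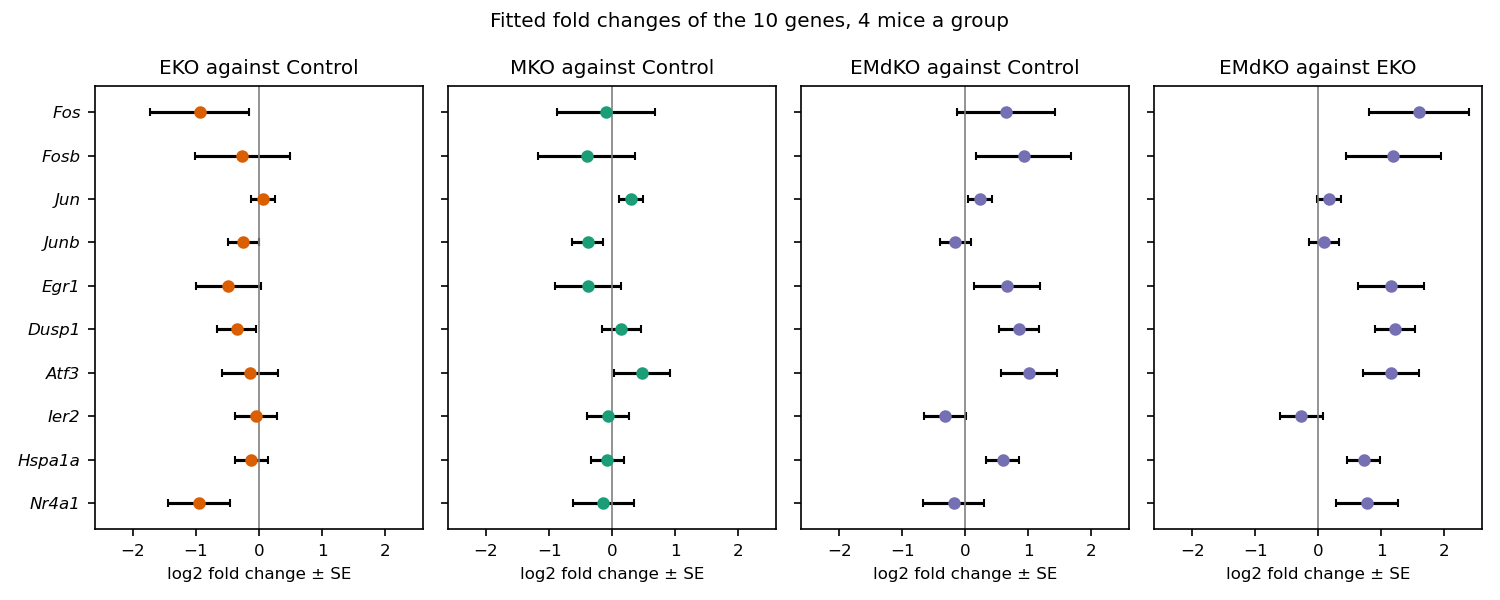
Fitted log2 fold change of each of the 10 genes in 4 comparisons, 4 mice a group, with bars of 1 SE from edgeR. Against Control the values of EKO lie at or below 0 except for Jun at 0.07, and those of EMdKO reach 1.01 for Atf3; no value passed an adjusted p of 0.05.

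Against the myeloid deletion alone, none of the 10 genes passed in EMdKO, against 0.00734% of targets, and Hspa1a and Dusp1 had unadjusted p-values under 0.05, against 7.42% of targets. No gene separated these groups, against 3.71% of targets wholly higher and 2.28% wholly lower. Hspa1a was fitted at 0.68 ± 0.26 with an adjusted p of 0.508 and Dusp1 at 0.71 ± 0.31 with an adjusted p of 0.629. Without EMdKO mouse 3 these values were 0.76 for Hspa1a and 0.31 for Dusp1. Between the single deletions, where 0.858% of targets passed, none of the 10 genes did and none had an unadjusted p under 0.05, against 16.9% of targets; none separated these groups, against 5.2% of targets wholly higher and 5.16% wholly lower in EKO. The test of the interaction, which asks whether the double deletion departs from the sum of the single ones, gave adjusted p-values of 0.999 for all 10 genes, and 0% of targets passed. Its largest values were 1.69 ± 1.11 for Fos and 1.60 ± 1.07 for Fosb. Dusp1, at 1.07 ± 0.45, and Hspa1a, at 0.81 ± 0.37, had unadjusted p-values of 0.029 and 0.0443, against 3.41% of targets under 0.05. Without EMdKO mouse 3 the interaction was 0.72 for Fos, 1.10 for Fosb, 0.67 for Dusp1 and 0.89 for Hspa1a, and without EKO mouse 1 it was 2.71 for Fos. These comparisons share groups, and their values are not independent of each other.

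The spread between mice of one genotype differed widely among the 10 genes. The SD of log2 CPM around the group means was 1.27 for Fos and 1.33 for Fosb, at the 98.3 and 98.4 percentiles of all tested targets. It was 0.80 for Egr1, 0.76 for Nr4a1 and 0.69 for Atf3, at the 94.4, 93.2 and 91.1 percentiles. For Ier2 it was 0.51, for Dusp1 0.48, for Hspa1a 0.38 and for Junb 0.36, and for Jun it was 0.27, below the 0.342 that was the median over all targets. The median over the 10 genes was 0.604, and it ran from 0.515 to 0.631 as single mice were left out. Within EMdKO alone the SD was 0.12 for Atf3 and 0.20 for Nr4a1, where in MKO it was 1.13 and 0.81, whereas that of Egr1 was 1.26 in EMdKO and 0.36 in MKO. The differences in spread between groups were not tested.

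Single mice stood at the same end for several of the genes. EMdKO mouse 3 was the highest of all 16 mice for 6 of the 10 genes and among the top 4 for 8, and EKO mouse 3 was the lowest for 4 and among the bottom 4 for 8. Within EKO, mouse 1 stood 1.93 above the group mean of log2 Fos, and within EMdKO, mouse 3 stood 1.90 above it. EKO mouse 3 also had the highest sum of the neutrophil list, 575 CPM against 160 CPM or less in every other mouse. That sum rested on S100a8 and S100a9, which reached 247 and 316 CPM in EKO. Csf3r, Cxcr2, Ly6g and Retnlg, of the same list, reached at most 8.01, 2.18, 0.13 and 2.27 CPM there. The sum is therefore no count of neutrophils. The part of these genes in the low values of EKO mouse 3 was not tested.

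**Figure D3:**
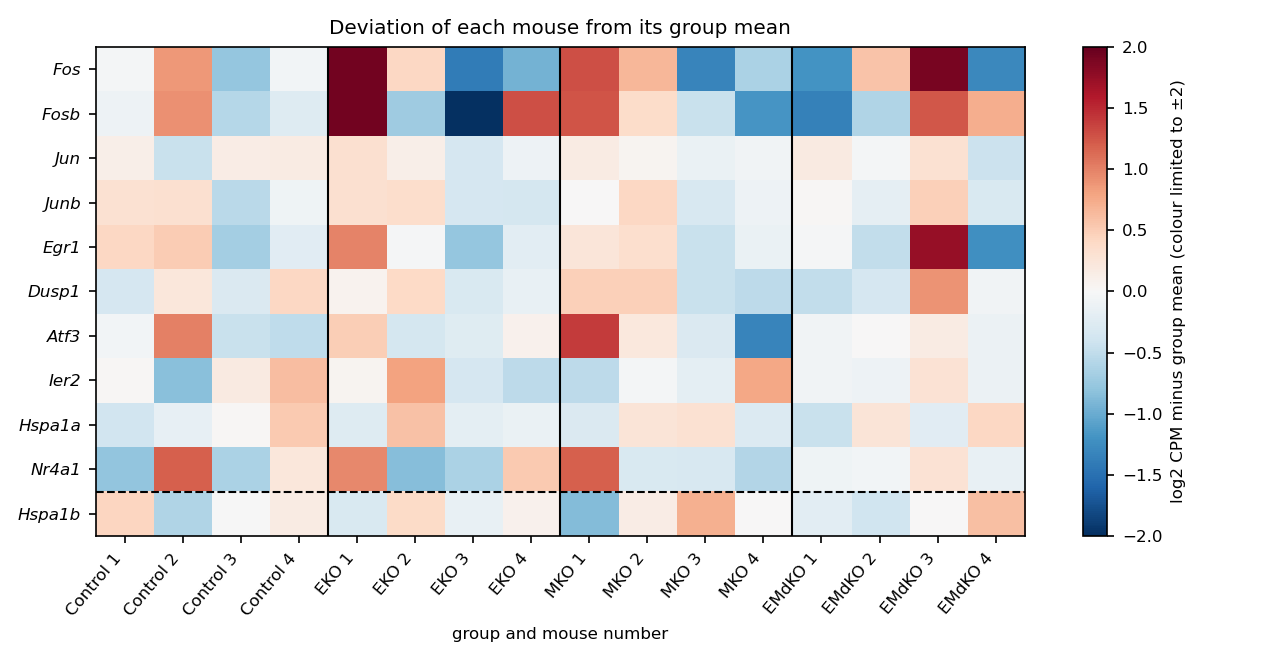
Deviation of log2 CPM from the group mean for each gene (rows) in each mouse (columns), with colour limited to 2 on either side and Hspa1b added below the dashed line. EMdKO mouse 3 and EKO mouse 1, which stand 1.90 and 1.93 above their group means of Fos, are red for most upper rows; Ier2 and Hspa1a follow another pattern.

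Across the 16 mice with group means removed, 6 of the other 9 genes had an unadjusted permutation p under 0.05 for their correlation with Fos, against 7.59% of all 13632 other targets, and no target passed after adjustment over all of them. Egr1 had a Pearson r of 0.82 (permutation p = 0.00067, adjusted 0.588) and a Spearman rho of 0.80 (permutation p = 0.00084, adjusted 0.746), the fourth highest r of all targets. Junb had an r of 0.76 (permutation p = 0.0031, adjusted 0.588) and a rho of 0.75 (permutation p = 0.00583, adjusted 0.779). Dusp1 had an r of 0.73 (permutation p = 0.00674, adjusted 0.605) and a rho of 0.63 (permutation p = 0.0205, adjusted 0.783). Without EKO mouse 1 and EMdKO mouse 3, whose deviations of Fos from the group mean lay farthest from the median deviation, r was 0.64 for Egr1, 0.65 for Junb and 0.71 for Dusp1, so these 3 relations did not rest on those mice alone.

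For Fosb, Fos's closest relative here, r was 0.64 (permutation p = 0.0388, adjusted 0.645) and rho 0.57 (permutation p = 0.0704, adjusted 0.788), and r fell to 0.41 without the same mice. Atf3 had an r of 0.57 (permutation p = 0.00687, adjusted 0.612) and a rho of 0.64 (permutation p = 0.00936, adjusted 0.783), with r at 0.60 without those mice. For Nr4a1 r was 0.55 (permutation p = 0.0317, adjusted 0.637) and rho 0.51 (permutation p = 0.0609, adjusted 0.788), with r at 0.43 without them. For Jun r was 0.51 (permutation p = 0.0820, adjusted 0.674) and rho 0.50 (permutation p = 0.0853, adjusted 0.788), with r at 0.21 without them, so this value rested on those mice. Ier2 stood at an r of 0.04 (permutation p = 0.887, adjusted 0.976) and a rho of 0.17 (permutation p = 0.563, adjusted 0.928). Hspa1a stood at an r of -0.13 (permutation p = 0.668, adjusted 0.917) and a rho of -0.19 (permutation p = 0.519, adjusted 0.921), so no relation of this target to Fos was detectable. Hspa1b, its near-identical copy, stood at an r of -0.49 (permutation p = 0.0752, adjusted 0.674) and a rho of -0.46 (permutation p = 0.101, adjusted 0.790). Its r was -0.56 without EKO mouse 1 and EMdKO mouse 3. With the skeletal muscle score removed as well, r with Fos was 0.90 for Egr1, 0.89 for Junb and 0.75 for Dusp1. The other values were then 0.607 for Fosb, 0.53 for Atf3, 0.525 for Nr4a1 and 0.524 for Jun. For Ier2 r was 0.138, for Hspa1a -0.123 and for Hspa1b -0.447.

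**Figure D4:**
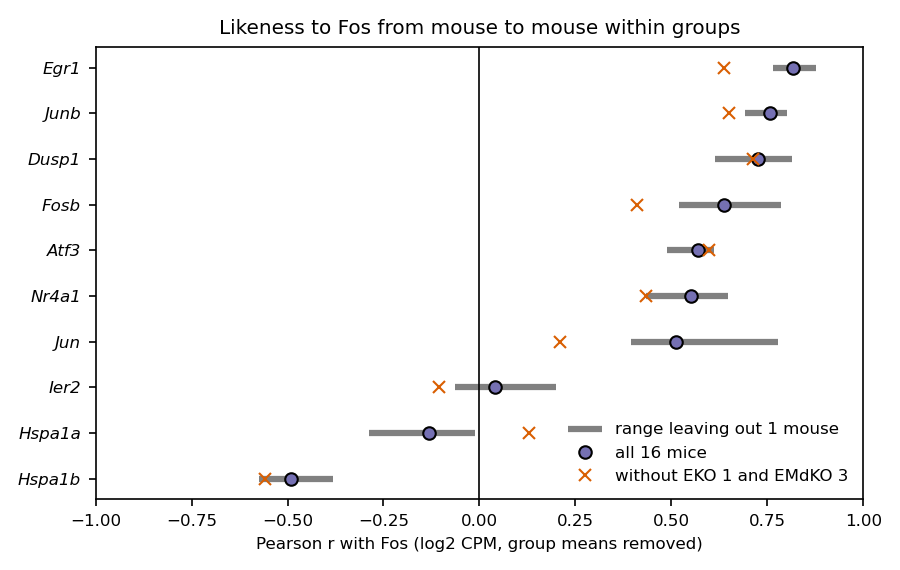
Pearson r of each gene with Fos over 16 mice on log2 CPM with group means removed (circles), its range as single mice are left out (bars), and its value without EKO mouse 1 and EMdKO mouse 3 (crosses). Egr1 lies at 0.82, Junb at 0.76 and Dusp1 at 0.73, and Hspa1a at -0.13. Hspa1b, plotted as well, lies at -0.49.

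The genes most like Fos by this measure, outside the 10 and at a mean log2 CPM of at least 1, were Pcdh7, a protocadherin, at an r of 0.859, Tie1, an endothelial receptor tyrosine kinase, at 0.859, and Rgs16, a regulator of G protein signalling, at 0.821. Lrrc27, Dhdh, Scn7a, Adm, the gene of the vessel-dilating peptide adrenomedullin, and Aoc3 followed, at 0.799, 0.797, 0.780, 0.769 and 0.766. The lowest values were those of Zxdb at -0.868, Chic2 at -0.821, Rictor, a subunit of the mTORC2 kinase complex, at -0.818, and Zdhhc23 at -0.796. All 12 were chosen for these values, and none passed after adjustment over all targets, the smallest adjusted p being 0.136 for Zxdb.

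Genes of the same pathways were read from 6 lists. In MKO against Control, 4 of 9 MAP kinase phosphatases and 6 of 25 other immediate early genes had an unadjusted p under 0.05. So did 2 of 10 AP-1 relatives, 2 of 13 heat shock and chaperone genes and 2 of 8 integrated stress response genes. Of 12 upstream kinases and factors 0 did, and of all targets 9.58%. In the same order the counts were 0, 2, 0, 1, 0 and 0 in EKO, against 6.9% of targets. In EMdKO they were 1, 1, 1, 1, 1 and 0, against 8.16%. Of the kinases and factors upstream of these promoters, ERK, JNK, p38, Srf, Elk, Creb1 and Hsf genes, none of 12 passed in any contrast, and their median log2 difference from Control was -0.08 in EKO, -0.04 in MKO and 0.08 in EMdKO. Srf, which binds the CArG box, was fitted at 0.53 ± 0.26 in MKO with an adjusted p of 0.530, and its r with Fos was 0.62, the highest of its list. Of the 10 AP-1 relatives none passed. Fosl1, a Fos protein of wounded and proliferating keratinocytes, was fitted at -1.75 ± 0.63 in MKO with an adjusted p of 0.360, with 1.68 ± 0.80 (SD) CPM in MKO and 5.79 ± 2.33 CPM in Control and no overlap, as was the case downward for 1.71% of all targets. Batf3 was fitted at 1.12 ± 0.44 in EMdKO with an adjusted p of 0.504. Its levels were low, at 1.80 ± 0.60 CPM in EMdKO and 0.79 ± 0.54 CPM in Control, and these groups overlapped. In MKO and EKO it was fitted at 0.76 ± 0.45 and 0.61 ± 0.45.

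Of 25 other immediate early genes tested, none passed in any contrast, and their median log2 difference from Control was -0.19 in EKO, -0.12 in MKO and 0.18 in EMdKO. Sik1, a salt-inducible kinase, was fitted at 0.52 ± 0.18 in EMdKO with an adjusted p of 0.446, with 288 ± 35.2 CPM against 200.1 ± 39.1 CPM in Control. Ccn2, a matrix-associated growth factor, was fitted at -0.62 ± 0.22 in EKO with an adjusted p of 0.602. Plk3, a stress-responsive kinase, was fitted at -1.07 ± 0.38 in MKO with an adjusted p of 0.355, and Zfp36, the gene of a protein that binds AU-rich elements, had the highest r with Fos of this list, 0.68.

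Of the 9 other MAP kinase phosphatases, the family of Dusp1, none passed. Their median log2 difference from Control was -0.30 in EKO, -0.51 in MKO and -0.25 in EMdKO, so it was negative in EMdKO where the value of Dusp1 was positive. Dusp14 was fitted at -2.50 ± 0.73 in MKO with an adjusted p of 0.331, against a Control group of 33.0 to 525 CPM with a median of 50.7 CPM, and the MKO mice, at 22.2 to 32.1 CPM, did not overlap it, as was the case downward for 1.71% of all targets and for 1 of these 9 genes. Dusp6, a phosphatase of ERK, had an r with Fos of 0.62.

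The heat shock and chaperone list gave 13 genes with a value, and the others of its 20 genes were not analysed here. None passed, and the median log2 difference from Control was 0.05 in EKO, -0.19 in MKO and 0.03 in EMdKO, where Hspa1a stood at 0.60. Hsp90ab1, a constitutive Hsp90 chaperone, was fitted at -0.35 ± 0.17 in MKO with an adjusted p of 0.537, at 2004 ± 259 CPM against 2559 ± 120 CPM in Control with no overlap, where 1.71% of all targets lay wholly lower. In the integrated stress response list, which holds the pathway in which Atf3 is induced through Atf4, none of 8 genes passed, and the medians were 0.04 in EKO, -0.26 in MKO and -0.10 in EMdKO. Hspa5, the chaperone of the endoplasmic reticulum, was fitted at -0.90 ± 0.24 in MKO with an adjusted p of 0.331, at 242 ± 75.2 CPM against 453 ± 87.3 CPM in Control, again without overlap as for 1.71% of all targets. Ddit3, a target of Atf4, was fitted at 0.41 ± 0.27 in MKO with an adjusted p of 0.657.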

How the data were processed

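RNA of whole skin was read with an amplicon panel that measures each transcript at a primer-defined stretch (Ion AmpliSeq, per the labels' protocols). The deposited values are raw counts per target, which the authors made with the counter HTSeq 0.6.0. That name, and DESeq2 1.18.1, come from the submitters' processing notes; the aligner and genome build are not given in the sources used here. The 5 summary lines that name no target held 3.11% to 5.25% of reads and were left out. Of 23930 targets, 22562 took a symbol, 22452 from RefSeq (GRCm38.p6) and 110 from GENCODE vM21.

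Counts were fitted with edgeR 4.0.16 (R 4.3.3; TMM scaling, filterByExpr, 1 mean per group, 12 residual degrees of freedom, quasi-likelihood test, 7 contrasts), with Benjamini-Hochberg adjustment over 13633 targets and a threshold of 0.05; called genes are those under it. The common biological coefficient of variation was 0.31. Log2 CPM used a prior count of 2. Likeness to Fos was tested by permuting Fos within groups (100000 resamples, two-sided). Levels of different genes are not compared, since each target has its own amplicon. The scripts were tested on simulated counts.

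The genes, lists and markers were chosen with earlier results of these data known. Named beside the 10 genes were Hspa1b, Zc3h12a, the 8 genes of highest and 4 of lowest r with Fos, and of each list up to 4 genes of smallest p against Control. Alternatives were RLE size factors, DESeq2 1.42.0, no filter, a filter of 1 CPM in 4 libraries, only the groups compared, the mouse number as a block, muscle and hair scores as covariates, and each library left out. The labels give no batch.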

Additional observations from a re-analysis of the deposited data

Results flagged for a closer look

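A mouse that stood far from the other 3 of its group was met in 4 of 40 sets of a gene and a group, where about 1 in 20 sets would be marked by chance. Jun in Control mouse 2 was at 159 CPM, with the nearest Control mouse at 234 CPM. Ier2 in EMdKO mouse 3 was at 23.7 CPM, with the nearest at 18.3 CPM. Hspa1a in EKO mouse 2 was at 21.5 CPM, with the nearest at 13.0 CPM. Nr4a1 in MKO mouse 1, which also had the highest skeletal muscle markers, was at 133 CPM, with the nearest at 47.1 CPM. Fos and Egr1 in EMdKO mouse 3 were not marked by this measure, since their groups were wide.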

How the results depend on the processing

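None of the 10 genes was called in any contrast under any of 24 alternatives, 167 counts in all, and the smallest adjusted p was 0.0913. Of 980 fold changes under alternatives, 948 had the same sign and no call, and 32 changed sign, none of them past the threshold; the cause was not tested. With the muscle score as a covariate, Ier2 in MKO came to 0.051. With the hair shaft score, which took in Krt1, Fos in MKO came to 0.68, Egr1 in MKO to 0.41 and Junb in EMdKO to 0.013. As single libraries were left out, values in EKO ran from -1.01 to 0.15 for Fosb, -0.058 to 0.17 for Jun, -0.34 to 0.31 for Atf3, -0.40 to 0.18 for Ier2 and -0.37 to 0.081 for Hspa1a. In MKO they ran from -0.62 to 0.28 for Fos, -0.97 to 0.0074 for Fosb, -0.019 to 0.30 for Dusp1, -0.19 to 0.94 for Atf3, -0.40 to 0.17 for Ier2, -0.20 to 0.13 for Hspa1a and -0.72 to 0.42 for Nr4a1. In EMdKO they ran from -0.31 to 1.02 for Fos, -0.29 to 0.96 for Egr1 and -0.40 to 0.38 for Nr4a1. Fold changes of EMdKO against EKO and MKO and of the interaction were followed in this way after the data were seen; none changed sign, and the skeletal muscle score moved the interaction of Fosb to 2.42. Same-numbered mice correlated at -0.54 to 0.61 over 24 pairs, 7 of them over 0.1. Mice of different numbers were not set beside them, so these values do not settle whether the numbers pair the mice. With the mouse number as a replicate block 0 genes were called, and the smallest adjusted p was 0.489 among the group contrasts.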
